A study of Mus musculus with 2 samples.

Results

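Runx1t1, Cbfa2t2 and Cbfa2t3 are the 3 genes of the mouse ETO family, also called MTG proteins, and were taken by name from the 32285 genes of the count matrix. All 3 members were detected. The samples were 1 RNA library and 1 open chromatin (ATAC) library, both read by SPARC-seq from brain tissue of C57BL/6 mouse at E18.5. How many embryos went into them is not given in the sources used here. The genotype was Ctcf homozygous mutation, the R567W exchange in CTCF made by CRISPR/Cas9, and both libraries carried it. There were no replicates and no wild-type library was used here, so no effect of the mutation was measured and no test was made. Comparisons were made between groups of barcodes within the libraries, and each interval is given at 95% and reflects counting error alone.

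ETO proteins are transcriptional corepressors. They do not bind DNA on their own but are brought to genes by sequence-specific factors, such as the E-proteins, and in turn recruit NCoR, SMRT, Sin3 and histone deacetylases. RUNX1T1 is best known as the fusion partner of RUNX1 in acute myeloid leukaemia, CBFA2T3 (ETO2) works with TAL1 and LDB1 in blood progenitors, and CBFA2T2 (MTGR1) is needed for germ cell and intestinal secretory lineages. In the developing nervous system, ETO proteins are known to act downstream of proneural factors as neurons differentiate.

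The 1992 kept barcodes held 8711132 UMIs, with a median of 4157 per barcode (907 to 12442), and a median of 21705 ATAC fragments (5759 to 87572). Each barcode was made of 2 segments of 8 bases and is read as a spot, which can hold several cells. No positions of spots were used. All 12 genes of a list of neuron markers were detected, with 0.583% of UMIs, and all 12 of a skeletal muscle list with 0.602%. The muscle genes of this library labelled brain were uneven, between 0.352% and 1.73% of UMIs over the second barcode segments. Fewer cells of a type in a spot and less RNA per cell cannot be told apart.

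The promoters of Cbfa2t2 and Cbfa2t3 are shown because windows alike in CpG content differed in the fragments over them. Cbfa2t2 and Cbfa2t3 had entries in the RefSeq promoter table (GRCm38.p6), and Runx1t1 had none. The 250 bases before each annotated start are given 5′ to 3′ on the strand of the gene, with each CpG in capitals. The first is Cbfa2t2 at chr2:154436234-154436483 on the plus strand. The next is the most upstream start of Cbfa2t3 at chr8:122699110-122699359 on the minus strand, and the last is its inner start at chr8:122678176-122678425 on the same strand.
Cbfa2t2: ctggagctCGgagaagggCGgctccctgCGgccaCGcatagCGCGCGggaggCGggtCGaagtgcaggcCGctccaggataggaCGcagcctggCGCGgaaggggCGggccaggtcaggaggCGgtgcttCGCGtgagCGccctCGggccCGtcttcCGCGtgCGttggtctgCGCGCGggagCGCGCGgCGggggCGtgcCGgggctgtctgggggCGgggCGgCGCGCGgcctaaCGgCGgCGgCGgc
Cbfa2t3, upstream start: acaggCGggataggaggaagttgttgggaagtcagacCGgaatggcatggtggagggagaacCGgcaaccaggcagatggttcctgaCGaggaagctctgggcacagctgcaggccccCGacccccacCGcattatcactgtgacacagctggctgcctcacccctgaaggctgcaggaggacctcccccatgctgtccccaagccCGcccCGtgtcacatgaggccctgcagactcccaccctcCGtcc
Cbfa2t3, inner start: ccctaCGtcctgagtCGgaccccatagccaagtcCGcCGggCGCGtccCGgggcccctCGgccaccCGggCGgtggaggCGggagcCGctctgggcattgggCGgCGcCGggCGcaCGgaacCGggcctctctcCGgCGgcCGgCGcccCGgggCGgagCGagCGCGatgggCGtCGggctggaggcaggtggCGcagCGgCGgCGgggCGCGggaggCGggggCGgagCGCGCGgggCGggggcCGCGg
The Cbfa2t2 promoter held 41 CpGs, more than 98.9% of the 32851 promoters in the table, whose median was 6. The inner Cbfa2t3 promoter held 43, more than 99.3% of promoters, and the upstream one held 9, more than 59.7%. The GC content was 78.4%, 83.2% and 64.0% in that order. The GC box GGGCGG, searched on both strands with overlaps counted, occurred 4 times in the Cbfa2t2 window, 5 times in the inner Cbfa2t3 window and once in the upstream one. At least 1 GC box was present in 32.7% of all promoters. The E-box CANNTG, the motif of E-proteins and other bHLH factors, reads the same on both strands. It occurred 4 times in the upstream Cbfa2t3 window, a number that 3.84% of promoters reached. The inner Cbfa2t3 window held 1 E-box and the Cbfa2t2 window held 0, and 66.2% of all promoters held at least 1.

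Runx1t1 was by far the most abundant member in RNA. Its 4916 UMIs amounted to 564 counts per 1000000 UMIs (CPM, 549 to 580, exact Poisson interval), with more UMIs than 99.3% of protein-coding genes before any scaling to length. Cbfa2t2 had 831 UMIs, or 95.4 CPM (89.0 to 102), more UMIs than 89.7% of coding genes. Cbfa2t3 had 815 UMIs, or 93.6 CPM (87.2 to 100.2), more than 89.5%. In plain UMIs, Runx1t1 had 5.92 times those of Cbfa2t2 (5.50 to 6.37) and 6.03 times those of Cbfa2t3 (5.60 to 6.50). Whether UMIs in introns were counted is not given in the sources used here, so levels were compared both per kb of exon and per kb of gene. Per kb of exon, Runx1t1 had 618 UMIs (601 to 635), Cbfa2t2 96.1 (89.6 to 103) and Cbfa2t3 97.3 (90.8 to 104). On that scale the Runx1t1 level was 6.43 times that of Cbfa2t2 (5.97 to 6.93, conditional binomial interval) and 6.35 times that of Cbfa2t3 (5.89 to 6.84). The gap was smaller per kb of gene, since Runx1t1 spans 150 kb, Cbfa2t2 103 kb and Cbfa2t3 74.0 kb. There the ratios were 4.05 (3.76 to 4.37) and 2.97 (2.76 to 3.20). Cbfa2t2 and Cbfa2t3 were neighbours in this order, and their ratio depended on the scale. It was 1.02 in plain UMIs (0.925 to 1.12) and 0.987 per kb of exon (0.895 to 1.09), with intervals that include 1. Only the division by gene length gave a difference, with 0.733 per kb of gene (0.665 to 0.808).

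The counts per spot followed the same order. At least 1 Runx1t1 UMI was seen in 85.1% of the kept spots (1696 of them, Clopper-Pearson interval 83.5% to 86.7%), with a median of 2 UMIs and a highest count of 16. Cbfa2t2 was seen in 666 spots, or 33.4% (31.4% to 35.6%), and Cbfa2t3 in 648 spots, or 32.5% (30.5% to 34.6%), neither with more than 4 UMIs in a spot. All 3 members were seen in 215 spots and none of them in 159 spots. A spot with 0 UMIs shows only that the gene was not detected there at this depth. No cell type that lacks these genes could be set apart in spots, so the share that free RNA gives was not measured.

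Open chromatin at the promoters did not follow the order of the RNA. A window of 1 kb on each side of the principal annotated start held 755 fragments for Cbfa2t2 (702 to 811), more than 96.2% of coding genes. It held 127 fragments for Runx1t1 (106 to 151), more than 44.1% of coding genes, and 122 for Cbfa2t3 (101 to 146), more than 43.1%. The Cbfa2t2 window thus had 6.19 times the fragments of the Cbfa2t3 window (5.11 to 7.56), while the RNA of these members was alike per kb of exon. The Runx1t1 window had 0.168 times the fragments of the Cbfa2t2 window (0.138 to 0.203). These ranks and ratios hold for the principal starts, which were not the most open ones of Runx1t1 and Cbfa2t3. Within 1 kb, the most upstream Runx1t1 start held 250 fragments (220 to 283) and the inner Cbfa2t3 starts 188 (162 to 217), both still below Cbfa2t2.

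The members also differed in where their open chromatin lay. Runx1t1 (ENSMUSG00000006586) lies on GRCm38 chromosome 4, 13743436 to 13893649, on the plus strand, with 5 separate annotated starts. Within 500 bp on each side, the most upstream start at 13743436 held 215 fragments (187 to 246) and the second start at 13751297 held 140 (118 to 165). The principal start at 13784782 held 79 (62.5 to 98.5). The most upstream start thus had 2.72 times the fragments of the principal one (2.09 to 3.57), and the second start 1.77 times (1.34 to 2.37). The starts at 13771377 and 13889220 held 15 and 37 fragments. Cbfa2t2 (ENSMUSG00000038533, chromosome 2, 154436481 to 154539356, plus strand) had a single open promoter. Its main start held 725 fragments (673 to 780), and its 4 inner starts held 13 to 34. Cbfa2t3 (ENSMUSG00000006362, chromosome 8, 122625141 to 122699109, minus strand) had its strongest start inside the gene. The principal start at 122699109 held 93 fragments (75.1 to 114), and the inner cluster of 4 starts, 20415 bp downstream, held 128 (107 to 152), a ratio of 1.38 (1.05 to 1.82). A further start at 122646466 held 67 (51.9 to 85.1), fewer than the principal one. The inner Cbfa2t3 and the Cbfa2t2 windows, with 43 and 41 CpGs in the sequences above, thus differed widely in fragments. Called peaks beside the inner Cbfa2t3 starts, given below, lie outside that window. The antisense gene Gm10612 overlaps Cbfa2t3 and had 1 UMI.

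**Figure D1:**
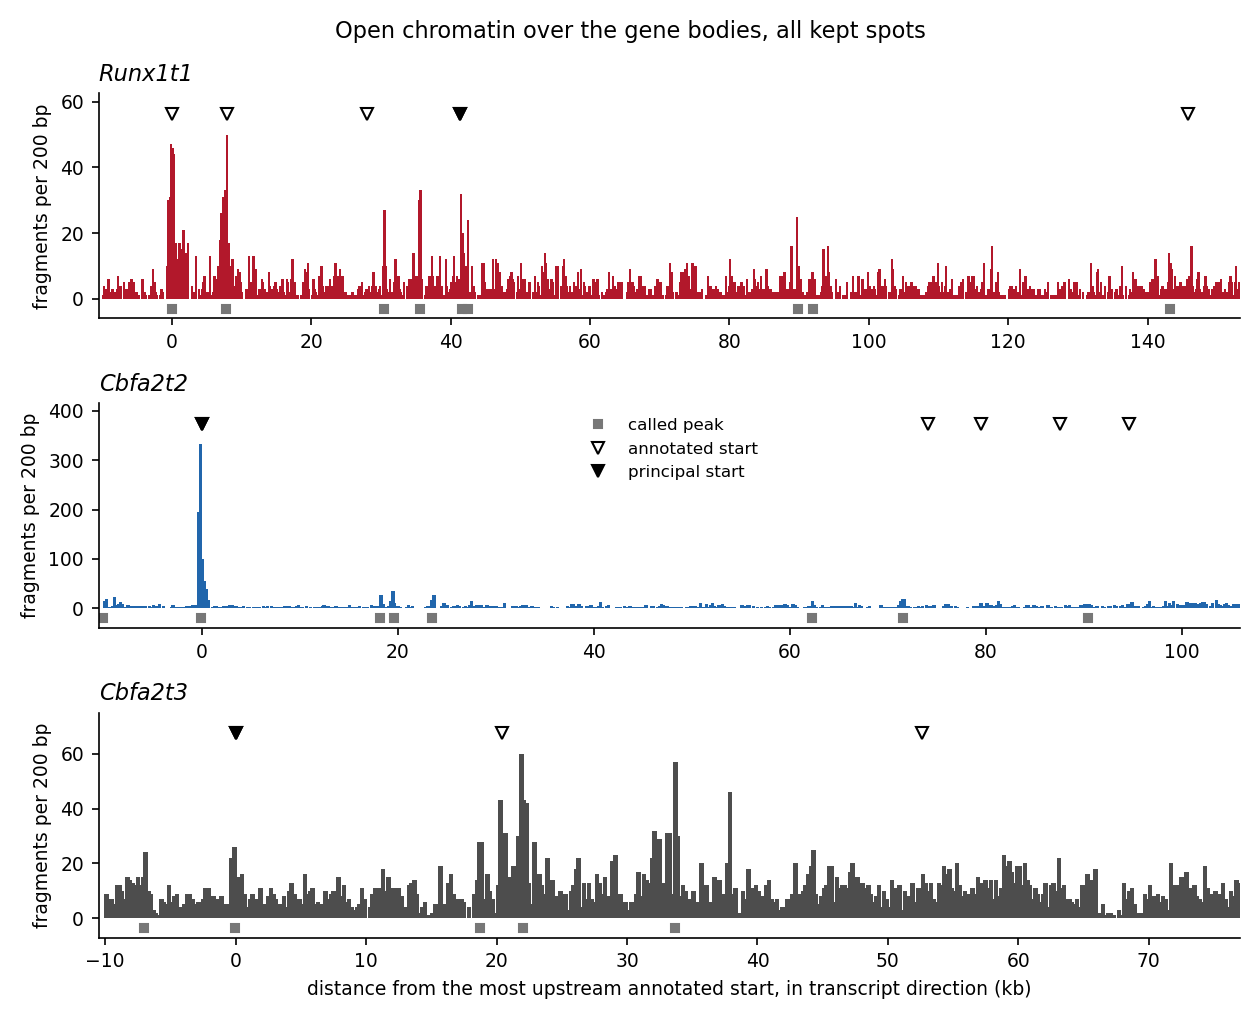
ATAC fragments of all kept spots per 200 bp (vertical axis) against distance from the most upstream annotated start in kb, for each member. Triangles mark annotated starts (filled, principal), and squares mark called peaks; Runx1t1 has peaks at 3 starts, Cbfa2t2 a single tall one, and the tallest Cbfa2t3 signal lies inside the gene.

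The called peaks were counted as well. Of 91223 peaks, 9 lay in Runx1t1 or the 10 kb before it, 8 in or before Cbfa2t2 and 5 in or before Cbfa2t3, and the median peak of the library held 105 cut-site counts. The Cbfa2t2 promoter peak (chr2:154435952-154436801) held 1303 counts (1233 to 1376), more than 99.1% of peaks. The next 2 of this gene, at chr2:154455589-154456552 and chr2:154507581-154508471, held 134 and 124. For Runx1t1, the peaks with most counts were those of the most upstream start (chr4:13742962-13743820) with 336 (301 to 374) and of the second start (chr4:13750849-13751530) with 222 (194 to 253). The third, chr4:13778577-13779459, held 153 counts and no annotated start. Peaks over annotated starts took 56.7% of the Runx1t1 counts and 65.7% of the Cbfa2t2 counts. In Cbfa2t3 that share was 13.6%, from the peak of the principal start with 135 counts, and no called peak covered the inner cluster of starts. Its 3 strongest peaks all lay inside the gene without an annotated start, at chr8:122676649-122677566 with 360 counts (324 to 399), chr8:122665063-122665831 with 217 (189 to 248) and chr8:122679919-122680762 with 158 (134 to 185). The strongest peak and the last of these lay close to the inner cluster of starts, on either side of it. The windows of 500 bp and 1 kb around that cluster reached neither peak, so its fragments above leave out this flanking signal.

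The variation over the tissue was followed over the 44 second barcode segments with at least 20 kept spots. Runx1t1 varied most against its counting error, which was also the smallest of the 3 relative to its level. Its level was 384 CPM in the lowest segment (297 to 489), 550 at the median and 951 in the highest (819 to 1097). The interval lay above the overall level in 8 segments and below it in 9. Cbfa2t2 ranged from 48.5 CPM (22.2 to 92.0) over a median of 94.7 to 149 (88.3 to 235), and only 1 segment lay above and 1 below the overall level by interval. Cbfa2t3 ranged from 38.0 CPM (16.4 to 74.8) over a median of 90.9 to 164 (114 to 228), with 3 segments above and 2 below. The highest segment was 2.47 times the lowest for Runx1t1, 3.07 times for Cbfa2t2 and 4.32 times for Cbfa2t3, and these ratios include counting error.

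**Figure D2:**
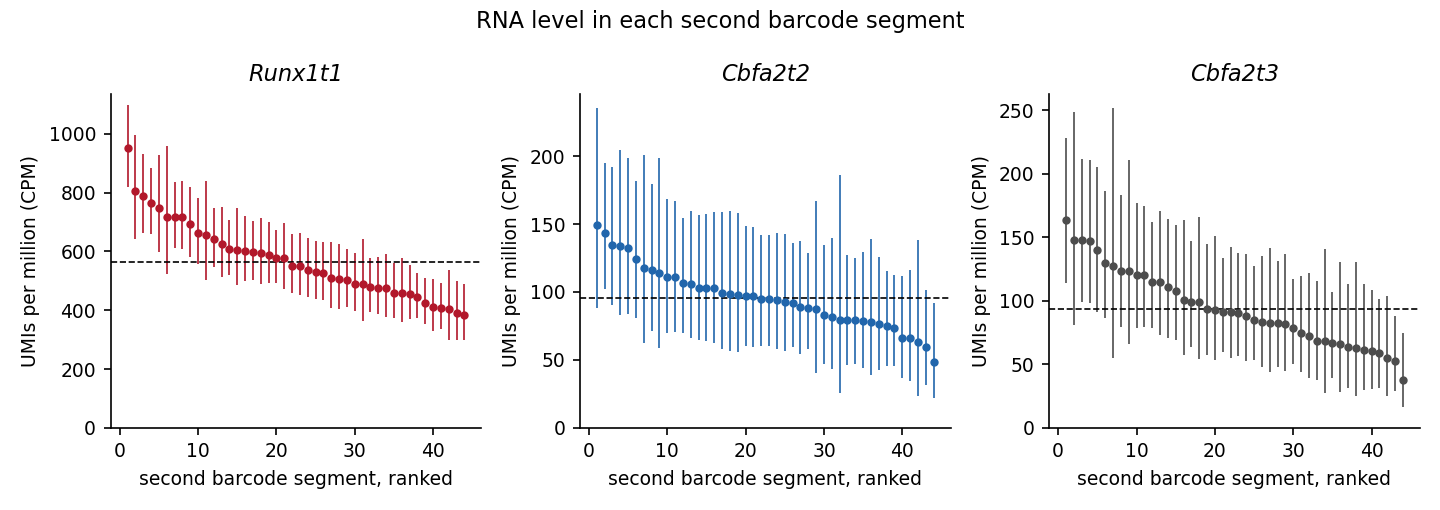
RNA level in CPM (vertical axis) of each member in the 44 second barcode segments, ranked separately for each gene (horizontal axis). Bars are exact Poisson 95% intervals and the dashed line is the level over all kept spots; the Runx1t1 segments run from 384 to 951 and leave the line at both ends, while most bars of Cbfa2t2 and Cbfa2t3 cross it.

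The spread was summed up as the chi-square of the counts against a constant share, divided by its degrees of freedom, which is near 1 for counting error alone. Over all 48 second segments it was 4.93 for Runx1t1, where 502 genes within 2-fold of its UMIs had a median of 2.13 and Runx1t1 stood above 89.8% of them. It was 0.937 for Cbfa2t2, above 6.93% of 3783 genes of like abundance (median 1.35), and 1.67 for Cbfa2t3, above 80.1% of 3845 genes (median 1.35). Over the 50 first segments the value for Runx1t1 was 1.26, close to the median of 1.22 for genes of like abundance, so its variation ran along the second segment. Over single spots the values were 1.17, 0.970 and 1.0.

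The genes most like Runx1t1 over the 44 segments were Dab1, Ephb1, Sox4, Myt1l and Opcml. Among 3979 genes with at least 500 UMIs, the highest Spearman correlations were those of Dab1 (0.73), the Reelin signal adaptor of migrating neurons, and Ephb1 (0.67), an ephrin receptor of axon guidance. They were followed by Sox4 (0.66), a transcription factor of neuronal differentiation, Myt1l (0.64), a repressor of non-neuronal genes, and Opcml (0.63), a neuronal adhesion molecule. For comparison, 95% of all these genes had a correlation below 0.38. In the 11 segments highest in Runx1t1 (656 to 951 CPM) the median Dab1 level was 1099 CPM, and in the 11 lowest (384 to 475 CPM) it was 818. The medians of Sox4 in the same segments were 488 and 324 CPM, and those of Ephb1 581 and 429. These correlations are descriptions over segments of 1 library, which share its depth and its mixture of tissues.

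Of the marker lists, the share of the glutamatergic neuron list, with genes such as Bcl11b, Slc17a6 and Neurod2, was most like Runx1t1 (0.47). The lists of epithelium and choroid plexus (-0.35) and radial glia (-0.31) ran the other way, and the list of neuron markers (0.07) and the UMIs per spot (0.13) had little relation to it. The share of the glutamatergic list ran from 0.0371% to 0.0915% of UMIs over the segments. They were split at 0.06%, between shares of 0.0566% and 0.0666%, and whether they form separate clusters was not tested. In the 10 segments above 0.06% of UMIs, a value set after the data were seen, Runx1t1 lay between 551 and 951 CPM with a median of 717. In the other 34 it lay between 384 and 806 with a median of 508. The ranges overlapped, and within the 34 segments the correlation with the list was 0.02, while within the 10 it was 0.70. Within the 34 segments the correlations of Runx1t1 with Dab1, Ephb1, Sox4, Myt1l and Opcml were 0.50, 0.46, 0.49, 0.39 and 0.48. Within the 10 they were 0.39, 0.65, 0.48, 0.31 and -0.13, and 10 segments are too few to resolve differences among these values.

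**Figure D3:**
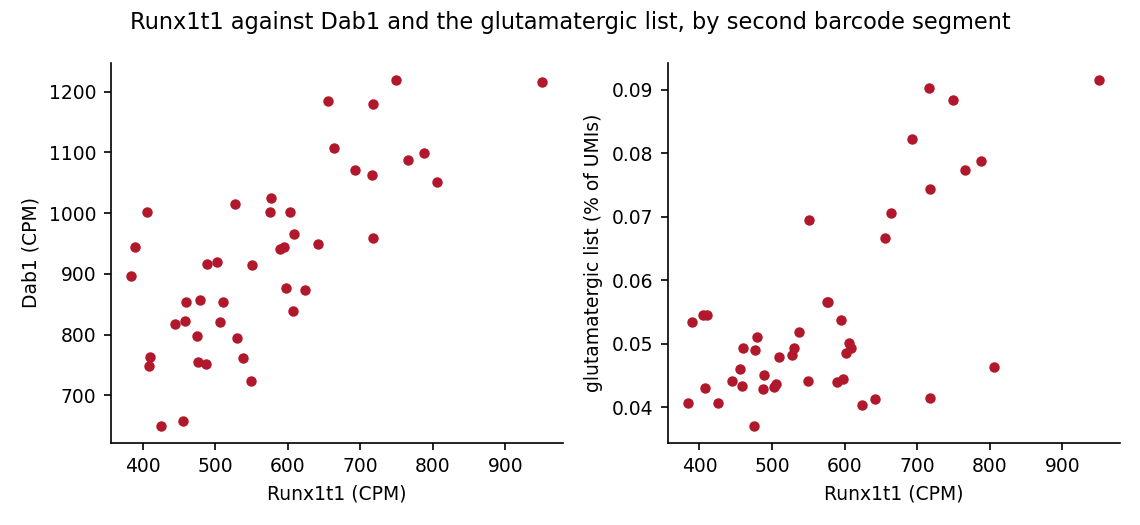
Each point is 1 of 44 second barcode segments, with Runx1t1 in CPM on the horizontal axis and Dab1 in the same unit (left) or the share of UMIs on the glutamatergic list in percent (right) on the vertical axis. Dab1 tends to be higher where Runx1t1 is higher (Spearman correlation 0.73), and 10 segments lie above 0.06% on the list.

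Over the same segments, the fragments over the Runx1t1 locus, from 10 kb upstream to the gene end, ran between 58.8 and 108 per 1000000 fragments, with a median of 78.8. Their correlation with Runx1t1 RNA was 0.42. The same value was 0.05 for Cbfa2t3 and -0.18 for Cbfa2t2. The genes with the highest correlations were different for the other members. Cbfa2t3 was most like Slc30a9 (0.66), a zinc transporter, and Elavl3 (0.57), a neuronal RNA-binding protein, before Fut9 (0.53), Soga3 (0.48) and Enox1 (0.47). The genes nearest to Cbfa2t2 were Ankrd13b (0.62), Glul (0.56), the glutamine synthetase, Ptpn5 (0.56), Podxl2 (0.54) and Nrg3 (0.53), but Cbfa2t2 itself varied no more than counting error, so little can be read from this order. Apart from Slc30a9, the Cbfa2t3 correlations were no higher than the 0.62 reached for Cbfa2t2. Little can thus be read from the order for Cbfa2t3 either. Between members the correlation was 0.31 for Runx1t1 and Cbfa2t3, -0.05 for Runx1t1 and Cbfa2t2 and -0.01 for Cbfa2t2 and Cbfa2t3.

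Spots were then ranked by their share of UMIs on a marker list, and the highest 498 spots were set against the lowest 498. Under the pituitary list 1180 spots held 0 UMIs of the list, so its lowest 498 were a random draw among them. Its highest spots held 0.0742% of their UMIs on the list. Under the glutamatergic list 304 spots held 0 UMIs of the list. No member differed by 1.5-fold or more in RNA under any of the 7 lists, and the background of genes past that fold was low throughout. For genes with at least 200 UMIs in both groups together it was 5.4% for the neuron list, 0.238% for radial glia, 5.84% for skeletal muscle, 2.04% for erythroid cells, 5.31% for connective tissue, 0.109% for pituitary and 0.152% for glutamatergic neurons. Passing that fold was thus rare among genes, and that no member passed it says little about the members. Smaller differences could be measured for Runx1t1, which had more counts.

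Runx1t1 stood at 587 CPM in the spots highest in neuron genes and at 492 CPM (462 to 522) in the lowest, a ratio of 1.19 (1.10 to 1.30). The neuron list took 0.785% and 0.377% of UMIs in these groups. Of the lowest neuron spots, 55.0% were among the highest muscle spots. Without the 498 spots highest in muscle the ratio was 1.03 (0.938 to 1.13), with an interval that includes 1. The groups were then 373 spots each, and the neuron list took 0.806% and 0.441% of their UMIs. In the spots highest in muscle genes Runx1t1 had 501 CPM and in the lowest 573, a ratio of 0.875 (0.805 to 0.95). The ratio was 0.836 (0.767 to 0.910) for connective tissue, 0.861 (0.791 to 0.937) for pituitary, 0.897 (0.826 to 0.974) for erythroid cells and 0.909 (0.836 to 0.989) for radial glia. All of these intervals lay below 1. The median UMIs per spot of the highest and lowest groups were 4213 and 4046.5 for muscle and 3835.5 and 3984.5 for connective tissue. They were 3686 and 3947 for pituitary, 3785.5 and 4342 for erythroid cells and 3666.5 and 4069.5 for radial glia. The part of depth in the RNA ratios was not tested. Genes in general also had ratios below 1 for muscle and connective tissue (median 0.954 for both) and erythroid cells (0.970). Among them Runx1t1 stood above 30.7% for muscle, 21.1% for connective tissue, 25.9% for erythroid cells, 17.7% for radial glia and 8.10% for pituitary, and above 80.3% for the neuron list. Of the spots highest in muscle genes, 61.2% were also among the highest in connective tissue genes.

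The glutamatergic list, ranked in the same way after the data were seen, gave 619 CPM of Runx1t1 in its highest spots and 518 CPM in its lowest, a ratio of 1.19 (1.10 to 1.30). This was above the ratio of 94.4% of the genes measured. The list was the marker list most like Runx1t1 over segments of the same RNA library, so its ratio is no separate evidence. Without the spots highest in muscle, in groups of 373 spots, the ratio was 1.20 (1.09 to 1.32). The median UMIs per spot of these groups were 4002 and 3985. Cbfa2t2 (0.996, 0.805 to 1.23) and Cbfa2t3 (0.943, 0.768 to 1.16) showed no difference that their counts could resolve under this list. Nor did they under the other lists, where all 12 of their intervals included 1.

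**Figure D4:**
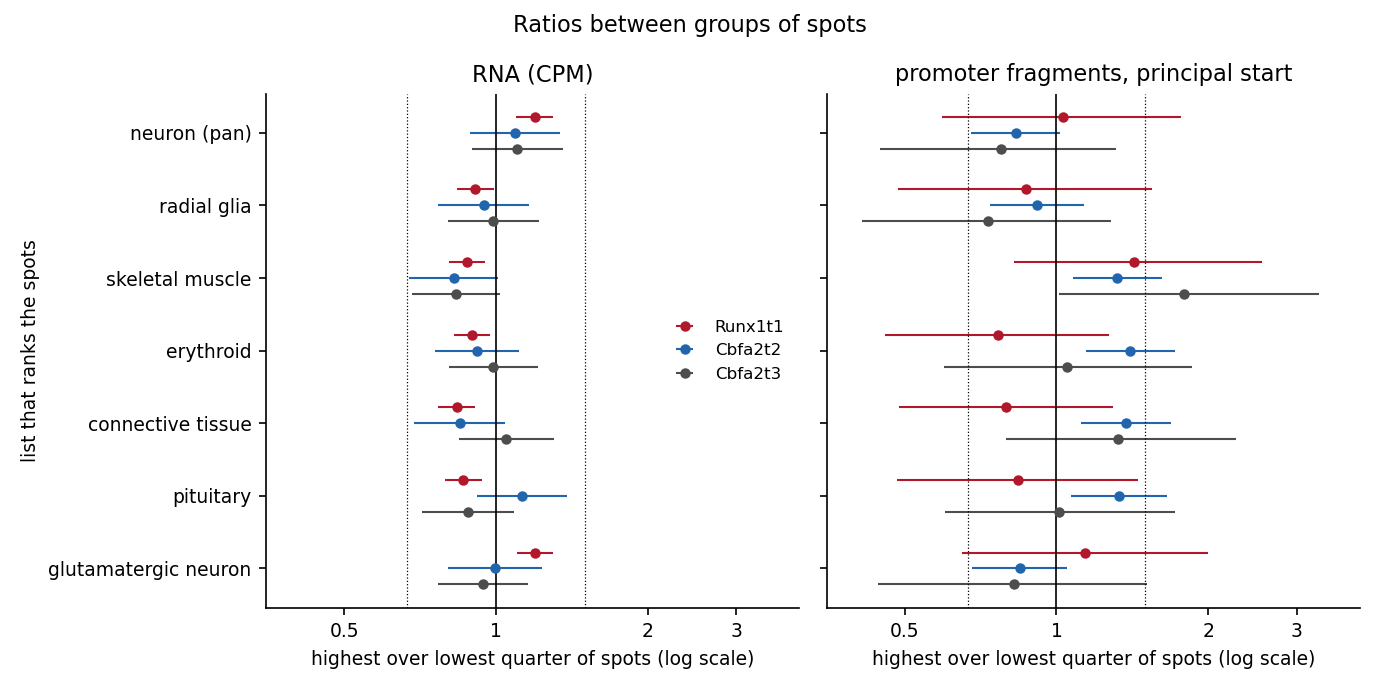
Ratio of the highest to the lowest 498 spots (horizontal log axis) by the list that ranked them (vertical axis), for RNA (left) and for promoter fragments at the principal start (right), with 95% counting intervals. Dotted lines mark 1.5-fold either way; Runx1t1 RNA lies above 1 for the neuron lists and below 1 for the rest, and all RNA ratios lie within the dotted lines.

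At the promoters, fragments within 1 kb of the principal start were scaled to all promoter fragments of the group. Cbfa2t2 had most of them. In the spots highest in muscle genes it had 297 fragments and in the lowest 146, a scaled ratio of 1.32 (1.08 to 1.62), beside an RNA ratio of 0.825 (0.673 to 1.01). The Cbfa2t2 RNA intervals included 1 under every list, so no direction of its RNA was resolved. The scaled ratio was 1.40 (1.15 to 1.72) for erythroid cells, 1.37 (1.12 to 1.69) for connective tissue, 1.33 (1.07 to 1.65) for pituitary, 0.916 (0.738 to 1.14) for radial glia and 0.830 (0.677 to 1.01) for the neuron list. The median fragments per spot were 27613 in the highest muscle spots and 20545 in the lowest, and the part of depth in these ratios was not tested. None of the Cbfa2t2 ratios reached 1.5-fold. Among genes with at least 200 promoter fragments, 8.05% did so for the neuron list, 0.0268% for radial glia, 10.3% for muscle, 3.06% for erythroid cells, 8.64% for connective tissue and 0.636% for pituitary. In its ratio Cbfa2t2 stood above 97.5% of these genes for pituitary, 96.7% for erythroid cells, 89.8% for connective tissue and 86.1% for muscle. It stood above 24.3% for radial glia and 21.4% for the neuron list. For Cbfa2t3 the muscle ratio was 1.79 (1.01 to 3.33), from 47 and 17 fragments, and 1.19 with a window of 2 kb. The called peak at that start (chr8:122698811-122699562) held 65 and 19 counts for muscle, a ratio of 2.27 (1.35 to 4.01) after scaling to all peak counts. Its neuron ratio was 0.623 (0.373 to 1.01). Of all peaks with enough counts, 44% passed 1.5-fold for muscle and 41.1% for the neuron list. All Runx1t1 intervals at the principal start included 1, with 53 to 73 fragments per comparison.

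The first 2 starts of Runx1t1 differed in their ratios between groups of spots. The peak of the second start held 64 counts in the spots highest in neuron genes and 29 in the lowest, a ratio of 3.19 (2.03 to 5.13) after scaling to all peak counts. Against all spots outside the highest 498 the ratio was 1.5. Under the muscle list it held 42 and 72 counts, a ratio of 0.387 (0.258 to 0.575), which came to 0.612 with groups of 664 spots. The peak of the most upstream start, 7861 bp away, held 66 and 110 counts for the neuron list (0.867, 0.629 to 1.19) and 103 and 60 for muscle (1.14, 0.821 to 1.59), with both intervals including 1. The intervals of these 2 peaks did not overlap under either list. Past 1.5-fold lay 41.1% of 51345 peaks for the neuron list and 44% of 54795 for muscle, among peaks with at least 50 counts in both groups together. Of the members' 15 peaks with enough counts, 4 passed for the neuron list, and 7 of 16 for muscle. Most went the other way from the second start, which was the only one of the 4 above 1 for the neuron list and 1 of 2 of the 7 below 1 for muscle. The Cbfa2t2 peak at chr2:154507581-154508471 had a neuron ratio of 0.449 (0.228 to 0.834), and the Runx1t1 peak at chr4:13886248-13887173 a muscle ratio of 2.42 (1.22 to 5.22), singled out after its value was seen. The second start stood above 98.9% of peaks in the neuron ratio and above 3.43% in the muscle ratio.

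The contrast between the starts was also measured among spots with less muscle RNA. Without the 498 spots highest in muscle, the second start held 48 and 33 counts, a ratio of 1.55 (0.972 to 2.49), where 21.8% of peaks passed 1.5-fold. The most upstream start held 46 and 65 there, a ratio of 0.752 (0.504 to 1.11), and the intervals of the starts now overlapped. Under the glutamatergic list, where 18% of peaks passed, the ratios were alike, at 1.18 (0.793 to 1.77) for the second start and 1.21 (0.890 to 1.65) for the most upstream one. Without the spots highest in muscle, where 17.9% passed, they were 0.895 (0.569 to 1.40) and 1.41 (0.977 to 2.06), so the order of the starts turned under this list, with overlapping intervals. The RNA counts cannot be assigned to a start. The inner Cbfa2t3 peaks differed among themselves. The strongest, at chr8:122676649-122677566, had a neuron ratio of 1.06 (0.785 to 1.42) and a muscle ratio of 1.06 (0.796 to 1.43). The peak at chr8:122665063-122665831 held 32 and 95 counts for the neuron list (0.486, 0.315 to 0.733) and 100 and 36 for muscle (1.85, 1.25 to 2.78), and its neuron ratio was 0.648 (0.378 to 1.09) without the spots highest in muscle. The peak at chr8:122679919-122680762 held 38 and 41 counts for muscle, a ratio of 0.616 (0.385 to 0.981), and its neuron ratio was 1.30 (0.797 to 2.10). Under the glutamatergic list its ratio was 0.629 (0.379 to 1.03), the only member peak past 1.5-fold of the 12 with enough counts, and 0.513 (0.275 to 0.925) without the spots highest in muscle.

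**Figure D5:**
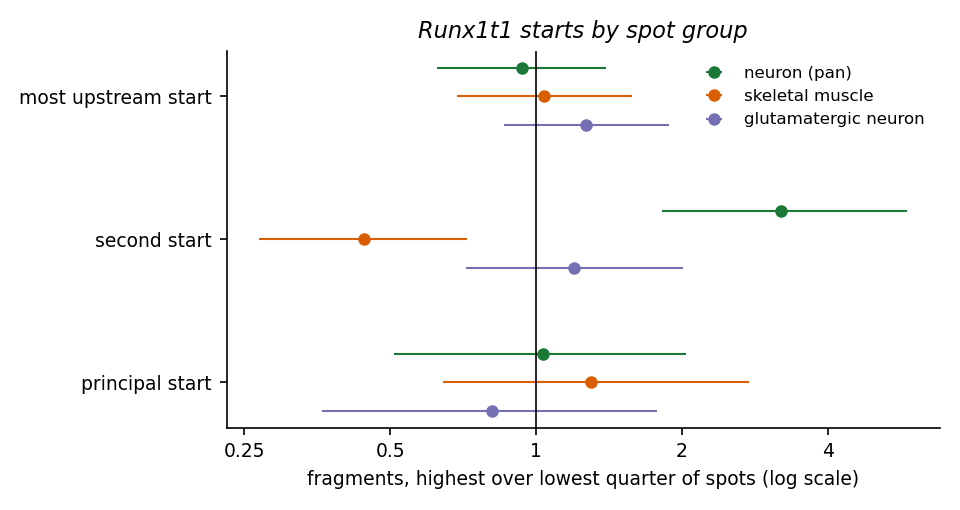
Fragments within 500 bp of 3 Runx1t1 starts (vertical axis) as the ratio of the highest to the lowest 498 spots (horizontal log axis) by 3 lists, with 95% counting intervals. The second start lies above 1 for the neuron list and below 1 for muscle, and the intervals of the other starts include 1.

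The partners of ETO proteins were taken from 5 lists. All 10 corepressor partners were detected, with 219 to 1884 UMIs and a median of 517.5. The most abundant were Ncor1 (216 CPM, 207 to 226), the NCoR scaffold, and Tbl1x (186 CPM, 177 to 195), a subunit of the same complex. Per kb of exon, Runx1t1 (618 UMIs) stood above Gps2 (274), Tbl1x (230) and Ncor1 (147), and Cbfa2t2 and Cbfa2t3 stood near Hdac1 (102). Per kb of gene the order differed, with Gps2, a short gene, at 162 UMIs, Runx1t1 at 32.7, Ncor1 at 13.3, Hdac1 at 13.2, Cbfa2t3 at 11, Tbl1x at 10.7 and Cbfa2t2 at 8.08. None of the 10 differed by 1.5-fold in the neuron or muscle comparison, with ratios between 0.865 and 1.12 for the 6 genes with enough UMIs in the neuron comparison.

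Of 9 E-proteins and proneural factors, 8 were detected. Tcf4 had 924 CPM (904 to 944) and Tcf12 184 CPM (175 to 193), both E-proteins that ETO proteins bind. The neuron ratio of Tcf4 was 0.929 (0.872 to 0.991) and that of Tcf12 0.848 (0.737 to 0.975), both below 1. Atoh1 had 0 UMIs, which allows up to 0.344 CPM taken as 3 counts, or 0.423 CPM by the exact Poisson interval. No gene of this list passed 1.5-fold with an interval that leaves out 1.

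The RUNX genes were low, and Runx1 and Runx2 were uneven. Runx1, the gene fused to RUNX1T1 in leukaemia, had 188 UMIs (21.6 CPM, 18.6 to 24.9), and Runx2, the bone transcription factor, had 341 (39.1 CPM, 35.1 to 43.5). Runx1 had a neuron ratio of 0.520 (0.333 to 0.796) and a muscle ratio of 1.66 (1.12 to 2.50), and Runx2 had 0.525 (0.380 to 0.718) and 1.94 (1.42 to 2.67). Both thus lay past 1.5-fold towards muscle-rich spots, unlike any ETO member. The intervals of Runx3 (20 UMIs) and Cbfb (178 UMIs) included 1 in both comparisons, with muscle ratios of 1.24 (0.378 to 4.34) and 0.912 (0.594 to 1.40). Of 9 blood complex partners, Zbtb16 (565 UMIs) and Ldb1 (348) were the most abundant, and Gata1 (5), Gfi1 (1) and Gfi1b (1) were near 0. In the muscle comparison Lyl1 (3.54, 1.28 to 12.1) and Bcl6 (1.59, 1.004 to 2.57) passed 1.5-fold, from 67 and 134 UMIs in all.

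All 6 Notch effectors were detected, led by Rbpj (597 UMIs), the DNA-binding factor of the pathway, and Notch1 (404). Hes1 had a neuron ratio of 0.545 (0.364 to 0.806) and a muscle ratio of 1.67 (1.14 to 2.48). Hes5 had a muscle ratio of 0.610 (0.389 to 0.945), and Hey1 one of 3.26 (1.02 to 13.6) from 37 UMIs. Each partner named here as past 1.5-fold had fewer than 200 UMIs in the groups compared, so the background shares above do not cover it. Of the 12 partners with at least 200 UMIs there, 0 passed in either comparison, beside the 5.4% and 5.84% of all genes.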

How the data were processed

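SPARC-seq libraries for RNA and open chromatin were processed by the authors with cellranger-arc 2.0.1 and mm10 (GRCm38), per the file headers, and the submitters' processing notes also name Seurat 4.0. The deposited matrix holds raw counts of UMIs per gene and of cut sites per peak for 1993 barcodes, and the deposited fragment list holds 2500 barcodes. A spot was kept if it had 500 to 6000 genes and no more than 20% of its UMIs were mitochondrial. Starts came from GENCODE (GRCm38). Ties in ranking were broken at random (seed 0). Genes of a list were left out of its background. Members and lists were chosen with earlier results of these data known. Named genes were the members, the 5 nearest genes of each over segments, the 2 most abundant genes per partner list and those past 1.5-fold with an interval leaving out 1, and 3 peaks per member, with a few more named for comparison. Alternatives concerned spot filter, denominator, window, start, group size and segment. A value had moved when it left its interval or, for a spread, changed by over 10%. Steps were tested on simulated data. Python 3.11.15, numpy 2.4.6, scipy 1.17.1 and pandas 2.3.3 were used. Gene names and starts rest on annotation, and with 1 library per assay the spread between embryos is unknown.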

Additional observations from a re-analysis of the deposited data

Results flagged for a closer look

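The 507 barcodes outside the count matrix entered no comparison, and their fragments at the members' principal starts were counted because a signal above 3 fragments was seen. Within 1 kb of the start, Runx1t1 had 12 fragments there (6.20 to 21.0), Cbfa2t2 46 (33.7 to 61.4) and Cbfa2t3 11 (5.49 to 19.7). Per 1000000 promoter fragments, Cbfa2t2 stood at 90.3 outside the matrix and at 123 in the kept spots, a ratio of 0.737 (0.535 to 0.992). The ratio was 1.14 (0.575 to 2.07) for Runx1t1 and 1.09 (0.530 to 2.02) for Cbfa2t3. Cbfa2t2 had most fragments of the members in these barcodes too.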

How the results depend on the processing

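Of 209 values under alternatives, 184 stayed within the interval (or 10%) of the reported value, 25 moved, and 0 turned direction with an interval leaving out 1. All 72 promoter ratios stayed within their wide intervals, though the muscle ratio of Cbfa2t3 came to 1.19 within 2 kb. For the RNA level, protein-coding nuclear genes as the denominator gave 624, 105 and 103 CPM for Runx1t1, Cbfa2t2 and Cbfa2t3, and leaving out the most abundant gene gave 595 for Runx1t1. Promoter fragments of Runx1t1 were 79 within 500 bp, 191 within 2 kb, 235 as insertions and 250 at the start with most fragments. Those of Cbfa2t3 were 93, 204, 234 and 188, and Cbfa2t2 had 1505 insertions. The neuron ratio of Runx1t1 was 1.05 against all other spots and 1.03 without the spots highest in muscle, where that of Cbfa2t2 was 0.834. The second start peak of Runx1t1 had a neuron ratio of 1.5 against all other spots and 1.55 without the spots highest in muscle, and a muscle ratio of 0.612 with the highest and lowest groups enlarged to 664 spots each. The spread of Runx1t1 was 1.26 over first segments and 4.38 without the 6 second segments highest in muscle. That of Cbfa2t2 was 1.05 with at least 2000 UMIs per spot and 0.829 without those 6, and that of Cbfa2t3 was 1.40 over first segments and 1.42 without those 6. Without Elavl3 in the neuron list, the neuron ratio of Runx1t1 was 1.12 and that of its second start peak 2.64. This setting, those without muscle-rich spots or segments, the glutamatergic list and the second start were chosen after seeing the data. Low counts limit the promoter ratios of Runx1t1 and Cbfa2t3. No paired analysis was possible because each assay had 1 sample.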

Other observations

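The GABAergic list (Gad1, Gad2, Dlx and other interneuron genes) correlated with Runx1t1 at 0.14 over the 44 second segments, against 0.47 for the glutamatergic list. Cbfa2t3 correlated at 0.24 with the glutamatergic list and at -0.33 with oligodendrocyte precursor genes. Among partner lists, E-proteins and proneural factors correlated with Runx1t1 at 0.34 and Notch effectors at -0.29. The first list shares Neurod2 and Neurog2 with the glutamatergic list, and the second shares Hes1, Hes5 and Notch1 with the radial glia list. Tcf4, with 8047 UMIs the most abundant gene of the first list, had 0.34 on its own, and Tcf12 had -0.007. These values are descriptions without a test.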
